A study of Homo sapiens with 8 samples.

Results

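DU145 is an established human prostate cancer line grown from a brain metastasis. This comparison set DU145 cells that had received a lentivirus carrying TRIB1 against DU145 cells that had received the empty lentivirus. Each group holds 2 RNA-seq libraries, called here control library 1 and 2 and TRIB1 library 1 and 2. The series holds 8 libraries in 4 groups, and the other 4 libraries come from PC3, a prostate cancer line grown from a bone metastasis, under the same 2 viruses. The sources used here do not give the promoter that drives the transgene, whether the cells are clonal, or the time between infection and harvest. The genes compared are those that averaged 1 TPM or more in either DU145 group, 23186 of the 57905 in the table. TPM scales each library to the same total. Protein-coding genes just inside that limit were FAM135B, ARL9 and SLC9A4, with a higher group mean of 1.0019, 1.0021 and 1.0026 TPM. EBLN2, TRIML2 and KLHL30 were just outside it, at 0.99805, 0.99833 and 0.99984 TPM.

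TRIB1 is a pseudokinase of the Tribbles family. It binds substrates such as C/EBP transcription factors and hands them to the ubiquitin ligase COP1 for destruction, and it also binds MEK1, a kinase upstream of ERK. C/EBP factors act with NF-kB at the promoters of many inflammatory genes, among them chemokines, IL6 and lipocalin 2. Interferon-stimulated genes form a second defence programme, switched on by STAT and IRF transcription factors after RNA sensors or interferon receptors have been triggered. Epithelial tumour cells can run both programmes without immune cells in the dish.

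The 4 DU145 libraries carried their line's markers. STAT3, which is all but absent from PC3, stood at 143 and 140.5 TPM in the DU145 controls against 96.9 and 97.4 TPM with TRIB1, and at 0.142 and 0.138 TPM in the PC3 controls. The epithelial genes KRT8, KRT18, KRT7, KRT19, EPCAM and CDH1 were all present, and 0 of these 6 passed the test of a change. Of 9 leukocyte markers, PTPRC was at 0.339 and 0.351 TPM with empty virus against 0.395 and 0.151 TPM with TRIB1, and 6 of the 9 were under the limit of 1 TPM. The summed level of the 3 measured markers was 28.2 and 34.3 TPM with empty virus against 9.68 and 8.87 TPM with TRIB1, nearly all of it CD68, a lysosomal protein of macrophages and other cells, which fell. The part of this in the results below was not tested. TRIB1 library 2 stood apart. It lay at 80.2 on the first principal component of the DU145 libraries (56.9% of their variance), against -28.9 to -25.6 for the other 3. RN7SL RNAs, which form part of the signal recognition particle, held 3.17% of its total against 1.27% to 1.93%, and short noncoding RNAs held 6.3% of it against 2.77% to 3.09%. No label says that the 2 libraries of a group are separate cultures or infections. The spread behind each p-value is that between these libraries and may be technical. In bulk RNA a lower level in every cell and fewer expressing cells cannot be told apart.

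TRIB1 itself was measured at 10.1 and 7.94 TPM with empty virus, against 69.4 and 62.3 TPM with the TRIB1 virus. Both TRIB1 libraries lay far above both controls, a 7.32-fold higher mean (log2 change 2.75, SE 0.12, limma adjusted p = 0.0018). The log2 changes here are differences of log2(TPM + 1), which understate the change of low genes. The table counts reads of the whole gene, so virus and chromosomal transcripts are not separated. Its partner COP1 was at 28.7 and 30.3 TPM with empty virus against 26.1 and 25.2 TPM with TRIB1 (log2 change -0.19, adjusted p = 0.68). No transcript of the C/EBP family on the list passed the test. CEBPA, CEBPB and CEBPD had lower means with TRIB1, and CEBPG a higher one (log2 change 0.18, adjusted p = 0.36). CEBPB went from 220 and 180 TPM to 97.2 and 73.1 TPM (log2 change -1.23, SE 0.22, adjusted p = 0.0502), CEBPD from 66.3 and 51.8 TPM to 39.7 and 30.7 TPM (-0.73, adjusted p = 0.149), and CEBPA from 5.55 and 5.11 TPM to 4.28 and 3.07 TPM (-0.45, adjusted p = 0.351). Of 19 measured genes of the Tribbles and COP1 list, 2 rose (TRIB1 and ETV4) and 1 fell (ETS2, an ETS factor, log2 change -0.55). ETV4, an ETS factor that COP1 is known to degrade, went from 32.9 and 35.9 TPM to 62.9 and 53.5 TPM (log2 change 0.74, adjusted p = 0.03). ETV4 lost its adjusted p when any single library other than TRIB1 library 2 was left out, and ETS2 without either DU145 or either PC3 TRIB1 library (up to 0.143 and 0.0656).

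More transcripts were called lower than higher with TRIB1 when all libraries were used. Over all genes tested, 1.12% were called, which takes an adjusted p below 0.05 together with a log2 change beyond 1 in either direction: 81 were higher (0.312% of those tested) and 209 lower (0.804%). At the adjusted p alone, the meaning of rose and fell in what follows, 185 rose (0.712%) and 522 fell (2.01%). The balance of called genes turned on single libraries: 405 were higher and 179 lower without TRIB1 library 1, and 276 and 178 without TRIB1 library 2. It was 65 and 371 without control library 1, 68 and 442 without control library 2, and 60 and 135 or 136 without a PC3 TRIB1 library. A fit of the 4 DU145 libraries by themselves gave 9 higher and 37 lower. The median log2 change over all genes tested was -0.04. Of the protein-coding genes, 42 were called higher and 154 lower. The lowered ones had a median absolute log2 change of 1.3, with 22 over 2 and 7 over 3, and a median control level of 15.9 TPM. The raised ones had a median of 1.5, with 6 over 2 and 0 over 3. Most of the genes named below were thus expressed well above the limit of 1 TPM, but 29 of the 154 were under 5 TPM in the controls.

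**Figure D1:**
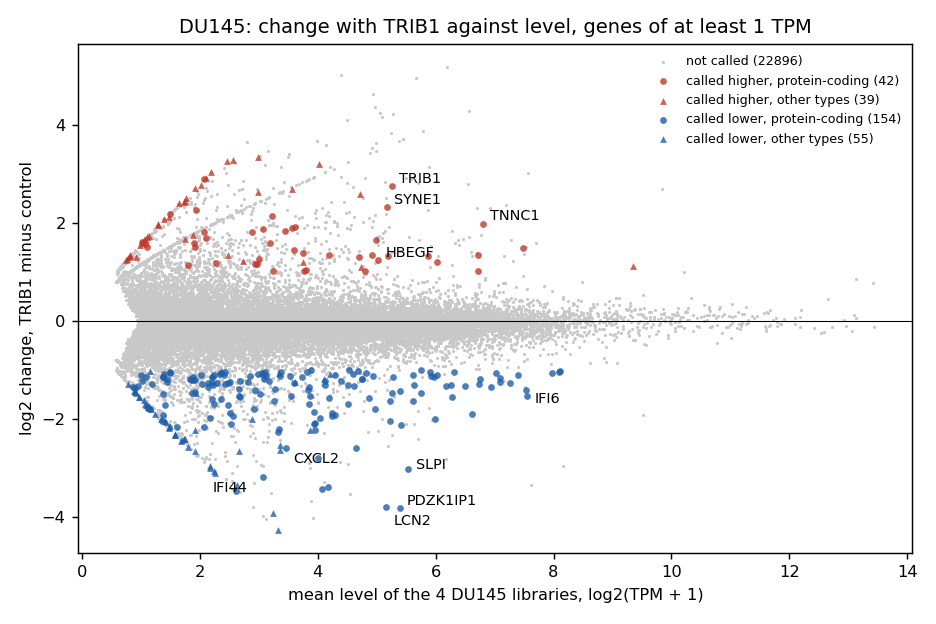
Log2 change (TRIB1 minus control) against mean level, log2(TPM + 1), of the 23186 genes of at least 1 TPM in a DU145 group, each point 1 gene; coloured points are the 81 genes called higher and the 209 called lower, circles protein-coding and triangles other types. LCN2 and PDZK1IP1 sit near a change of -4 at middle levels, and few called genes lie above a level of 8.

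Genes of mucosal defence and the acute phase response had the lowest median change of the 42 lists. The lists were chosen with earlier results of these data known, so this rank is a description. The list has 20 measured members, of which 13 fell and 0 rose, with 7 not passing and a median log2 change of -1.63. LCN2 encodes lipocalin 2, which starves bacteria of iron by binding their siderophores. LCN2 dropped from 69.3 and 62.8 TPM to 4.1 and 3.51 TPM, a 17.3-fold lower mean (log2 change -3.80, SE 0.08, adjusted p = 0.000218). SLPI, an inhibitor of neutrophil elastase in mucosal fluids, went from 89.1 and 74.8 TPM to 9.95 and 8.42 TPM, 8.92-fold lower (log2 change -3.02, SE 0.12, adjusted p = 0.0018). The epithelial membrane protein gene PDZK1IP1 went from 83.6 and 70.8 TPM to 5.5 and 3.69 TPM, 16.8-fold lower (-3.82, SE 0.24, adjusted p = 0.00424). In all 3 genes every TRIB1 library lay below every control by a factor far larger than the gap between replicates. Non-overlap by itself is common here, since the 2 TRIB1 libraries lay on 1 side of both controls in 47.3% of the genes tested.

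The acute phase apolipoprotein gene SAA1 was at 46.8 and 37.2 TPM with empty virus against 6.13 and 6.09 TPM with TRIB1 (log2 change -2.59, adjusted p = 0.00441). Its neighbour SAA2, a near copy with which reads may have been shared, went from 32.7 and 26.8 TPM to 0.922 and 3.19 TPM (-3.43, adjusted p = 0.0128). ELF3, an epithelial ETS factor that drives several such genes, was at 166 and 142 TPM and then at 41.8 and 39.2 TPM (-1.90, SE 0.09, adjusted p = 0.00206). The subunits of calprotectin, a metal-binding antimicrobial protein, moved together. S100A9 went from 23.2 TPM in each control to 5.61 and 5.78 TPM (-1.85, adjusted p = 0.00282), and S100A8 from 6.86 and 5.58 TPM to 1.2 and 1.27 TPM (-1.68, adjusted p = 0.00638). Of the whole S100 list, by contrast, 3 of 14 members fell, 3 rose and 8 did not pass. S100A16 rose by 0.35 and S100A4, a marker of motile cells, by 0.67 on the log2 scale, while S100A11 fell by 0.47. SAA2 lost its adjusted p without any 1 of the DU145 controls and PC3 TRIB1 libraries (up to 0.0795), S100A16 without the same 4 (up to 0.0734), S100A11 without any 1 of the 4 DU145 or 2 PC3 TRIB1 libraries (up to 0.186) and S100A4 without any 1 of the 8 (up to 0.185). The 13 defence genes became 8 without control library 1 and 11 or 12 without each of the others.

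Because LCN2 is a known joint target of NF-kB and C/EBP, its promoter is shown as it stands in RefSeq (GRCh38.p14, chr9:128149268-128149452, plus strand), up to the base before the annotated start. Capitals mark matches to the NF-kB consensus (at -175 to -166, on the opposite strand) and to the C/EBP motif TTGCNNAA (at -143 to -136), searched on both strands.
LCN2: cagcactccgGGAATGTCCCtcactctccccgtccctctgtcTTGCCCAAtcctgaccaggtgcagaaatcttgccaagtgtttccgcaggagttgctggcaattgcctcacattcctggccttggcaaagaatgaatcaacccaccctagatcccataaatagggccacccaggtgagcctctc

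Chemokines, the secreted attractants of white blood cells, were lower as well. With 12 members measured, 8 fell, 0 rose and 4 did not pass (median log2 change -1.38). CXCL2, which attracts neutrophils through CXCR2, was at 18.0 and 18.1 TPM with empty virus against 2.15 TPM in each TRIB1 library, 8.41-fold lower (log2 change -2.60, SE 0.07, adjusted p = 0.000351). CXCL1, its close paralog, went from 30.9 and 23.4 TPM to 3.09 and 2.96 TPM (-2.79, SE 0.12, adjusted p = 0.0018). CCL20, the ligand of CCR6 on dendritic cells and T cells, went from 9.52 and 7.35 TPM to 1.21 and 1.19 TPM (-2.09, adjusted p = 0.00621). For these 3 genes the TRIB1 libraries agreed more closely than the controls or as closely. CCL2, a monocyte attractant, was the most abundant of the 8, at 62.5 and 56.3 TPM and then 14.3 and 13.2 TPM (-2.03, adjusted p = 0.00827). CXCL8, the main neutrophil attractant of human epithelia, went from 22.99 and 18.9 TPM to 7.13 and 4.58 TPM (-1.70, adjusted p = 0.0169). CXCL3, chosen after its values were seen, went from 5.42 and 3.76 TPM to 0.923 and 1.14 TPM (-1.45, adjusted p = 0.0125). CCL2 lost its adjusted p without control library 1 (0.0537), CXCL8 without any 1 of the DU145 controls and PC3 TRIB1 libraries (up to 0.0925), and CXCL3 without TRIB1 library 1 or either PC3 TRIB1 library (up to 0.0574). The count of 8 became 5 without control library 1 or either PC3 TRIB1 library, and 6 to 8 without each of the others. Reads of CXCL1, CXCL2 and CXCL3 may have been shared, since the 3 genes are near copies.

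Some cytokines fell too. Of 18 measured cytokines and growth factors 5 fell, 0 rose and 13 did not pass (median log2 change -0.19). IL6, which drives the acute phase response through STAT3, was at 6.35 and 5.39 TPM with empty virus against 0.582 and 0.473 TPM with TRIB1, 11.1-fold lower (log2 change -2.17, SE 0.12, adjusted p = 0.00282). CSF1, the growth factor of macrophages, went from 58.2 and 62.7 TPM to 24.2 and 19.9 TPM (-1.42, SE 0.11, adjusted p = 0.00605). LIF, an IL6 family cytokine, went from 35.8 and 36.9 TPM to 22.8 TPM in each TRIB1 library (-0.65, SE 0.06, adjusted p = 0.0109). In each of the 3 the TRIB1 libraries were below both controls, by the widest margin in IL6. IL32 was the most abundant of the 5, at 352 and 322 TPM and then 186 and 138 TPM (-1.07, adjusted p = 0.0266). Of 29 measured cytokine and TNF family receptors 3 fell and 0 rose: IL4R (-0.94), TNFRSF9 (-1.31) and OSMR, the receptor of oncostatin M (-0.77). IL32 lost its adjusted p without any 1 library except the 2 DU145 TRIB1 libraries (up to 0.141). The same happened to IL4R without any 1 of the DU145 controls and PC3 TRIB1 libraries, to TNFRSF9 without control library 1 or TRIB1 library 2, and to OSMR without any 1 of 6 libraries (up to 0.0931, 0.0564 and 0.156). The 5 cytokines became 3 or 4 without any 1 library, and the 3 receptors 0 without control library 1 and 1 to 3 without each of the others.

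The promoters of CXCL1, CXCL2 and IL6 are shown for the same 2 motifs, from RefSeq (GRCh38.p14). The stretches are chr4:73869304-73869392 (plus strand), chr4:74099196-74099393 (minus strand) and chr7:22727035-22727199 (plus strand), each up to the base before the start. In CXCL1 and CXCL2 the NF-kB capitals at -79 to -69 and -78 to -68 are overlapping matches on both strands, and CXCL2 also holds a C/EBP match at -188 to -181. In IL6 the C/EBP match is at -155 to -148 and the NF-kB match at -73 to -64.
CXCL1: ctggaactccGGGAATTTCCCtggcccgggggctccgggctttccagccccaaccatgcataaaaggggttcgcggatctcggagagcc
CXCL2: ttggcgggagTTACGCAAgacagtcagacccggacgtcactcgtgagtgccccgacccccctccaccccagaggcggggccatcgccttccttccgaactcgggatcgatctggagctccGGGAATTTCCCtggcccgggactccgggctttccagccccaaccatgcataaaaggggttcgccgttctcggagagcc
IL6: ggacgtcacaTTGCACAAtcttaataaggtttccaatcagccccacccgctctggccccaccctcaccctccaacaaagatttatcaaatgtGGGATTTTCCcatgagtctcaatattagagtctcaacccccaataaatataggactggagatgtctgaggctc

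Several NF-kB target genes of feedback and survival fell. Of 20 measured feedback and survival genes 9 fell, 0 rose and 11 did not pass (median log2 change -0.59). ICAM1, the endothelial and epithelial ligand of leukocyte integrins, went from 74.96 and 71.1 TPM to 23.6 and 22.5 TPM (log2 change -1.62, SE 0.07, adjusted p = 0.0018). SOD2, the mitochondrial superoxide dismutase, went from 119 and 109 TPM to 40.7 and 36.3 TPM (-1.54, SE 0.08, adjusted p = 0.00282). BIRC3, an apoptosis inhibitor that ubiquitinates NF-kB pathway proteins, went from 85.1 and 85.5 TPM to 38.4 and 38.2 TPM (-1.14, SE 0.06, adjusted p = 0.00282). Replicates of BIRC3 differed by less than 1 TPM in both groups. ZC3H12A, a nuclease that destroys IL6 transcripts, was at 44.2 and 41.5 TPM and then at 12.9 and 14.6 TPM (-1.57, adjusted p = 0.00441). TNFAIP3, which encodes the deubiquitinase A20 and was chosen after its values were seen, went from 29.7 and 28.6 TPM to 6.43 and 7.38 TPM (-1.93, adjusted p = 0.00528). TNIP1, a partner of A20 chosen in the same way, fell by 0.77 on the log2 scale. Among the 11 that did not pass were CYLD, a deubiquitinase (log2 change -0.22), and the survival gene BCL2L1 (0.0046).

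Of 17 measured subunits, inhibitors and kinases of NF-kB 3 fell, 0 rose and 14 did not pass (median log2 change -0.39). NFKBIA, the inhibitor that NF-kB itself induces, went from 242 and 216 TPM to 114 and 98.3 TPM (log2 change -1.11, adjusted p = 0.0104). NFKB1, the precursor of the p50 subunit, went from 24.0 and 24.8 TPM to 16.1 and 14.5 TPM (-0.64, adjusted p = 0.0256). The kinase gene IKBKE went from 31.5 and 30.1 TPM to 14.4 and 17.4 TPM (-0.92, adjusted p = 0.0321). NFKB2, RELB and NFKBIZ had lower means without passing, at -0.31, -0.44 and -0.92 (adjusted p = 0.0887, 0.225 and 0.122). These calls rested on single libraries: the 3 became 0 without control library 1 or either PC3 TRIB1 library, and up to 3 without each of the others. NFKBIA lost its adjusted p without control library 1 or either PC3 TRIB1 library (up to 0.0534), NFKB1 without any 1 of 5 libraries (up to 0.0884) and IKBKE without any 1 of the 8 (up to 0.156).

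Of the complement genes, C1R, C1S, C1RL, C3 and CFI fell. With 18 members measured, 5 fell, 0 rose and 13 did not pass (median log2 change -0.25). C1R and C1S encode the proteases of the first complement component. C1R went from 21.7 and 19.7 TPM to 6.97 and 6.04 TPM (log2 change -1.53, adjusted p = 0.00904) and C1S from 23.3 and 25.6 TPM to 5.36 and 3.63 TPM (-2.23, adjusted p = 0.0127). C1RL, a related protease gene, went from 48.1 and 46.0 TPM to 21.7 and 24.9 TPM (-0.99, SE 0.09, adjusted p = 0.00934). C3, the central component, went from 41.3 and 22.95 TPM to 1.47 and 2.75 TPM (-3.39, SE 0.35, adjusted p = 0.0132). The 2 controls of C3 differed widely, and its SE was the largest of these 4. CFI, the protease that inactivates C3b, was chosen after its values were seen and went from 6.4 and 7.02 TPM to 1.78 and 1.34 TPM (-1.60, adjusted p = 0.0179). C2 and the near copies C4A and C4B, which may share reads, also belong to the classical pathway. They had log2 changes of 0.31, 0.15 and 0.10 and did not pass. The membrane protectors CD46, CD55 and CD59 had log2 changes of -0.25, -0.22 and -0.26 and did not pass. C3 lost its adjusted p without TRIB1 library 1 or either PC3 TRIB1 library (up to 0.0521), C1S without any 1 of the DU145 controls and PC3 TRIB1 libraries (up to 0.0725) and C1R without control library 1 (0.0502). The count of 5 became 3 without control library 1 or either PC3 TRIB1 library, and 4 or 5 without each of the others.

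**Figure D2:**
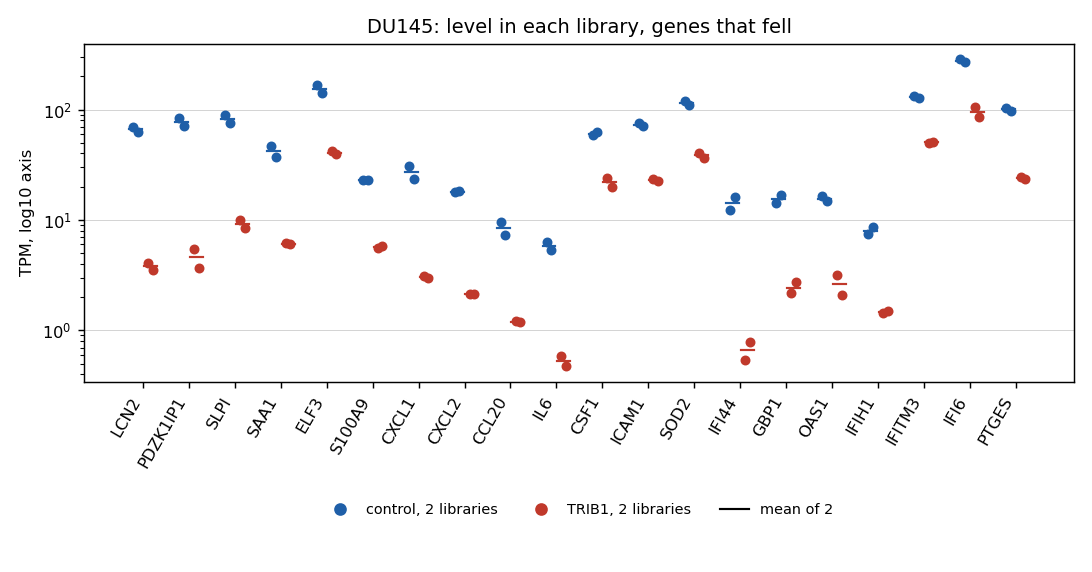
Level in TPM on a log10 axis of 20 genes that fell, in the 2 control (blue) and 2 TRIB1 (red) libraries of DU145; each dot is 1 library and each bar the mean of 2. For each of the 20 genes both red dots lie below both blue dots, a condition of choice for those among the largest falls. The means are from 21.4-fold lower for IFI44 to 2.55-fold lower for IFITM3.

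By count, interferon-stimulated genes formed the list with the most members that fell. This rank too is a description, since the lists were chosen with earlier results known. A larger share fell of the chemokines (8 of 12) and of the defence genes (13 of 20). Of 43 measured effectors 21 fell, 17 of them past a log2 change of 1, 0 rose and 22 did not pass (median log2 change -0.91). The median was -0.93 in TRIB1 library 1 and -0.97 in library 2. Of the members, 42 of 43 had a negative log2 change, beside a median of -0.04 over all genes tested. IFI44, a gene of the antiviral response, was at 12.3 and 16.1 TPM with empty virus against 0.542 and 0.783 TPM with TRIB1, 21.4-fold lower (log2 change -3.19, SE 0.16, adjusted p = 0.00259). OAS1, which makes the activator of RNase L, went from 16.3 and 14.9 TPM to 3.2 and 2.07 TPM (-2.21, SE 0.16, adjusted p = 0.00528). The guanylate-binding protein genes GBP1 and GBP2, close copies whose products attack intracellular pathogens, fell together. GBP1 went from 14.3 and 17.0 TPM to 2.17 and 2.72 TPM (-2.27, adjusted p = 0.00621) and GBP2 from 24.0 and 23.6 TPM to 5.1 and 4.43 TPM (-2.11, adjusted p = 0.00441).

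Interferon-stimulated genes of high abundance were among those that fell. IFI6 went from 285 and 270 TPM to 106 and 85.2 TPM (log2 change -1.53, adjusted p = 0.00441). IFITM3, which blocks the entry of enveloped viruses, went from 131 and 126 TPM to 50.2 and 50.6 TPM (-1.33, SE 0.06, adjusted p = 0.0018). A few members were picked once their values had been seen. The ubiquitin-like modifier gene ISG15 fell from 184 and 192 TPM to 88.6 and 79.3 TPM (-1.16), MX1 by 1.09, OASL by 1.64 and SAMD9 by 1.71 on the log2 scale, with adjusted p from 0.00453 to 0.00697. All 10 of these genes, from IFI44 to SAMD9, kept an adjusted p below 0.05 without any 1 of the 8 libraries. The count of 21 became 14 without either PC3 TRIB1 library, 15 or 16 without any DU145 library and stayed at 21 without a PC3 control.

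Some of the sensors and signalling factors upstream of these genes fell as well. With 24 members measured, 9 fell, 0 rose and 15 did not pass (median log2 change -0.60), and 23 of 24 had a negative change. IFIH1, which encodes the sensor of long double-stranded RNA MDA5, went from 7.4 and 8.64 TPM to 1.43 and 1.5 TPM (log2 change -1.87, SE 0.13, adjusted p = 0.00441). TRIM25, the ubiquitin ligase that acts on RIG-I, went from 92.7 and 87.0 TPM to 43.1 and 51.2 TPM (-0.92, adjusted p = 0.0119). STAT2, a factor of interferon signalling chosen after its values were seen, went from 77.6 and 73.2 TPM to 46.9 and 52.4 TPM (-0.60, adjusted p = 0.0275). IRF9, its DNA-binding partner, went from 25.1 and 22.97 TPM to 13.5 and 15.7 TPM without passing (-0.69, adjusted p = 0.0926). The receptor subunit gene IFNAR1 fell by 0.61. In each of these genes both TRIB1 libraries lay below both controls, while 47.3% of all genes tested had both on 1 side of the controls. The list's 9 became 2 without control library 1 or either PC3 TRIB1 library, 4 without any other DU145 library and 8 without either PC3 control. TRIM25 lost its adjusted p without control library 1 or either PC3 TRIB1 library (up to 0.0618), IFNAR1 without any 1 of 6 libraries (up to 0.0928) and STAT2 without any 1 of 7 (up to 0.121).

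IFI6 and IFIH1 are shown for the core of the interferon-stimulated response element, GAAA, any 2 bases and GAAA, again from RefSeq (GRCh38.p14, minus strand, chr1:27672193-27672358 and chr2:162318685-162318853). IFI6 holds 3 matches, in a repeated stretch. IFIH1 holds 2 overlapping matches on the opposite strand at its upstream end, a match close to its start, and between them a match to the NF-kB consensus at -76 to -67.
IFI6: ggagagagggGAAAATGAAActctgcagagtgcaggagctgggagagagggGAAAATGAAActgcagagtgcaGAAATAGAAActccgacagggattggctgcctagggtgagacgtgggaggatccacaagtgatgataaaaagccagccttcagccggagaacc
IFIH1: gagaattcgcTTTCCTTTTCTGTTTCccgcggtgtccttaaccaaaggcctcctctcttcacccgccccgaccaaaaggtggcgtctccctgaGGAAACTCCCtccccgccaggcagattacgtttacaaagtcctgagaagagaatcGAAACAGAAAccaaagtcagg
The same search was made in the 300 bases around the start (250 before and 50 after) of every gene in that table, 27305 promoters with 1 per symbol. Promoters matched 112 of the 154 protein-coding genes called lower and 26 of the 42 called higher. The ISRE core occurred in 19 of the 112 lowered promoters (17.0%) and in 0 of the 26 raised ones. It occurred in 3.65% of all promoters and in 2.71% of those of the protein-coding genes of at least 1 TPM. The NF-kB consensus occurred in 29 of 112 (25.9%) and 5 of 26 (19.2%), against 10.8% of all promoters and 13.1% of those of the protein-coding genes of at least 1 TPM. The C/EBP motif occurred in 16 of 112 (14.3%) and 1 of 26 (3.85%), against 10.6% and 7.01%. With 26 raised promoters, none of the 3 shares among raised genes is precise. These shares describe letters in a fixed window and were not tested.

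Some genes of antigen presentation by MHC class I fell. With 21 members measured, 8 fell, 0 rose and 13 did not pass (median log2 change -0.62). PSMB9, an inducible subunit of the immunoproteasome, went from 176 and 175 TPM to 89.6 and 77.7 TPM (log2 change -1.06, adjusted p = 0.0132). HLA-B went from 529 and 481 TPM to 289 and 269 TPM (-0.85, adjusted p = 0.0132) and HLA-E, a ligand of NK cell receptors, from 176 and 163 TPM to 109 and 101 TPM (-0.69, adjusted p = 0.0147). PSMB8 fell by 0.67. Reads of the HLA genes, which are close copies, may have been shared. None of these 4 kept its adjusted p without every single library: it was lost without control library 1 in all of them and without 1 to 3 others in each (up to 0.0743). The 8 became 0 without control library 1, 7 without TRIB1 library 1, 3 without control library 2 or TRIB1 library 2, 1 without either PC3 TRIB1 library and 9 without either PC3 control.

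**Figure D3:**
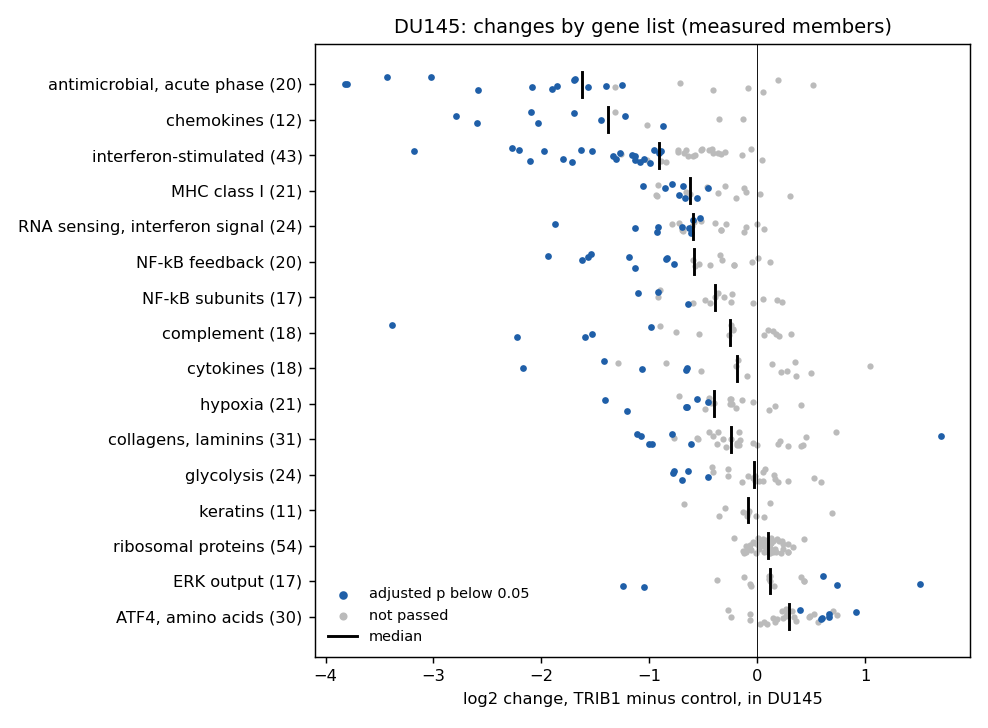
Log2 change with TRIB1 in DU145 of the measured members of 16 gene lists (number in brackets), each dot 1 gene, blue at an adjusted p below 0.05 and grey otherwise; black bars are medians. Medians run from -1.63 for antimicrobial and acute phase genes to 0.3 for ATF4 and amino acid genes, with keratins and ribosomal proteins close to 0.

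ERK pathway genes moved in both directions. Of 17 measured feedback and output genes 3 rose, 2 fell and 12 did not pass (median log2 change 0.12). DUSP4, a nuclear phosphatase of ERK, went from 1.06 and 0.895 TPM to 4.72 and 4.53 TPM, 4.73-fold higher (log2 change 1.51, SE 0.08, adjusted p = 0.00309). SPRY1, a feedback inhibitor of receptor tyrosine kinases, went the other way, from 6.41 and 5.53 TPM to 2.43 and 2.29 TPM (-1.05, adjusted p = 0.0103). IER3, an early response gene that NF-kB also induces, went from 202 and 180 TPM to 84.9 and 75.4 TPM (-1.24, adjusted p = 0.00441). Ligands of the EGF receptor split too. HBEGF rose from 18.6 and 18.2 TPM to 45.7 and 43.9 TPM (1.24, SE 0.06, adjusted p = 0.00282), whereas AREG (-0.88) and EREG (-1.102) fell. EGF itself went from 6.87 and 5.66 TPM to 11.1 and 12.5 TPM without passing (0.82, adjusted p = 0.0529). Of the 11 measured AP-1 and EGR factors, which ERK induces, 0 rose and 0 fell. DUSP4, SPRY1, IER3 and HBEGF each passed without any 1 of the 8 libraries, while AREG and EREG lost their adjusted p without any 1 of 7 and 6 libraries (up to 0.123 and 0.115). The other member that rose, besides ETV4 and DUSP4, was SPRY4 (0.61), and its 3 became 1 or 2 without any 1 library.

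Matrix and adhesion genes changed in small numbers. Of 31 measured collagens, laminins and modifying enzymes 6 fell, 1 rose and 24 did not pass (median log2 change -0.24). Tenascin C (TNC) went from 10.5 TPM in each control to 4.53 and 4.15 TPM (log2 change -1.11, SE 0.08, adjusted p = 0.00534). LAMA3, a laminin chain that anchors epithelial cells, went from 19.7 and 17.7 TPM to 8.63 and 8.94 TPM (-1.005, adjusted p = 0.00638). The 1 riser was NPNT, nephronectin, an integrin ligand of the basement membrane, from 0.921 and 1.13 TPM to 5.8 and 5.36 TPM (1.70, SE 0.12, adjusted p = 0.00441). TGFBI, a secreted matrix protein, went from 373 and 363 TPM to 186 and 178 TPM (-1.01, SE 0.06, adjusted p = 0.00424). TNC, LAMA3, NPNT and TGFBI all passed without any 1 library. Keratins did not move with them: 0 of 11 rose or fell. Of 12 measured mesenchymal genes 2 rose (VIM and S100A4), 2 fell (TGFBI and FN1) and 8 did not pass (median -0.24). Fibronectin (FN1) went from 9.75 and 8.97 TPM to 4.45 and 4.3 TPM (-0.95, adjusted p = 0.0196), which was lost without any 1 of the DU145 libraries (up to 0.0991). The filament gene VIM went from 414 and 430 TPM to 577 and 543 TPM (0.41, adjusted p = 0.0369), which was lost without any 1 of 6 libraries (up to 0.167).

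Several genes of amino acid supply rose and several hypoxia genes fell, and the counts of both lists depended on single libraries. Of 30 measured genes of the ATF4 stress response 6 rose, 0 fell and 24 did not pass (median log2 change 0.30). The leucine transporter gene SLC7A5 went from 120 and 126 TPM to 241 and 226 TPM (log2 change 0.92, adjusted p = 0.0371), and PSAT1, of serine synthesis, from 139 and 150 TPM to 237 and 220 TPM (0.66, adjusted p = 0.0192). ASNS and SLC3A2 were the other members that rose besides PHGDH and MTHFD2. The 6 became 0 without control library 1 or either PC3 TRIB1 library and 1 to 5 without each of the others. Of 21 measured hypoxia genes 6 fell and 0 rose (median -0.40). VEGFA, the vascular growth factor, went from 286 and 248 TPM to 102 and 96.9 TPM (-1.41, adjusted p = 0.0154), and HIF1A, the oxygen-regulated factor itself, from 132 and 140 TPM to 89.0 and 94.3 TPM (-0.56, adjusted p = 0.0201). The 6 became 0 without either PC3 TRIB1 library and 1 to 5 without each of the others. SLC7A5, VEGFA and HIF1A lost their adjusted p without any 1 of 6 libraries (up to 0.183, 0.0877 and 0.0839) and PSAT1 without any 1 of 5 (up to 0.0838). MT2A, a zinc-binding metallothionein, went from 703 and 681 TPM to 380 and 379 TPM (-0.86, SE 0.07, adjusted p = 0.00534) and passed without any 1 library. Lists of housekeeping and growth functions stood near the overall median: 0 of 54 ribosomal protein genes (median 0.10), 0 of 25 DNA replication genes (-0.04), 0 of 26 sterol and fatty acid genes (0.06) and 1 of 27 mitosis genes passed.

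The genes called higher with TRIB1 had no common list. The 6 genes of the ATF4 list that rose stayed short of a log2 change of 1, with a highest change of 0.92 on that list. SYNE1, which links the nuclear envelope to the cytoskeleton, was at 10.2 and 11.97 TPM with empty virus against 60.4 and 58.0 TPM with TRIB1, 5.35-fold higher (log2 change 2.32, SE 0.17, adjusted p = 0.00528). TNNC1, the calcium-binding troponin of slow muscle, went from 44.8 and 43.4 TPM to 189 and 166 TPM (1.98, SE 0.12, adjusted p = 0.00424). FOLR1, a folate receptor, went from 2.05 and 2.96 TPM to 14.5 and 14.1 TPM (2.14, adjusted p = 0.00695). In these 3 genes both TRIB1 libraries lay above both controls, which the rule that named them required. ALPG, a placental-type alkaline phosphatase, went from 4.25 and 3.85 TPM to 18.2 and 17.2 TPM (1.89, adjusted p = 0.00604). Its neighbour ALPP went from 3.77 and 4.46 TPM to 20.7 and 15.95 TPM (1.91, adjusted p = 0.0271), and reads of the 2 copies may have been shared. Of 13 measured metalloproteinases and inhibitors 1 rose (MMP28), 1 fell (MMP24, -0.80, adjusted p = 0.0249, lost without any 1 of 5 libraries, up to 0.109) and 11 did not pass (median -0.19). MMP28, epilysin, went from 2.27 and 2.3 TPM to 11.1 and 10.1 TPM (1.82, adjusted p = 0.00638). ADAMTS8, a secreted protease outside that list, went from 0.868 and 0.823 TPM to 5.86 and 5.24 TPM (1.83, adjusted p = 0.00991). BMP4, a secreted signal of the TGF-beta family, went from 14.7 and 17.5 TPM to 42.2 and 42.9 TPM (1.35, SE 0.12, adjusted p = 0.00827). After TRIB1, the 12 largest called protein-coding rises in genes reaching 5 TPM included SEMA3E (2.26), DUSP13 (1.88), CES3 (1.84) and LBH (1.65). ALPP, SEMA3E, CES3 and LBH lost their adjusted p without any 1 of at least 6 libraries (up to 0.193), and DUSP13 without control library 1 (0.0564).

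SYNE1 is shown as a raised gene whose promoter, like those of CXCL1 and CXCL2, matches the NF-kB consensus on both strands, at -82 to -72 (RefSeq, GRCh38.p14, chr6:152637363-152637454, minus strand).
SYNE1: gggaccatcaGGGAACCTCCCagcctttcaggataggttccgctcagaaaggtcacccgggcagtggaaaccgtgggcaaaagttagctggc

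**Figure D4:**
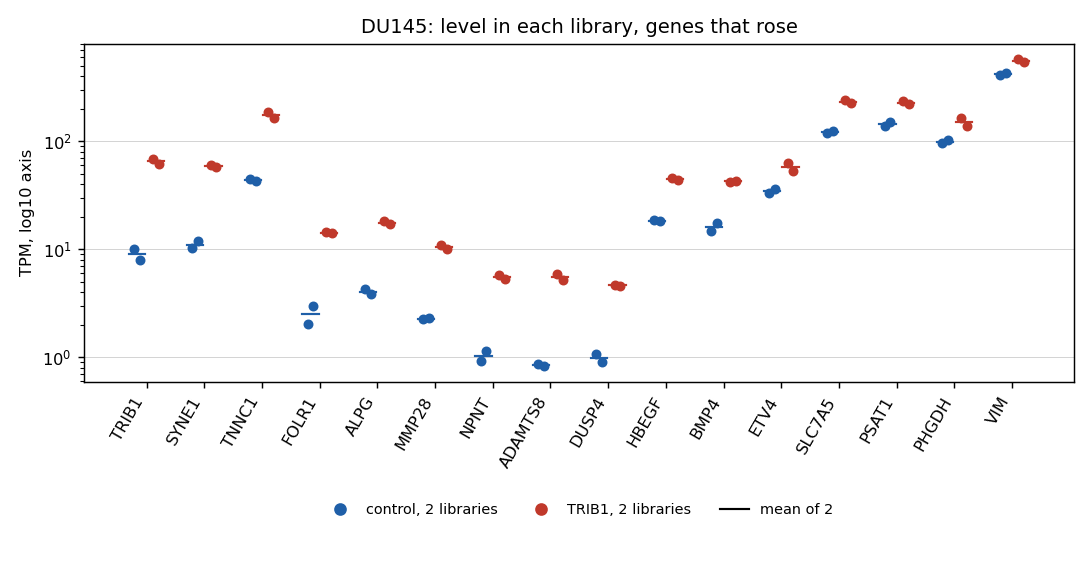
Level in TPM on a log10 axis of 16 genes that rose, in the 2 control (blue) and 2 TRIB1 (red) libraries of DU145; each dot is 1 library and each bar the mean of 2. The gaps between groups run from 7.32-fold for TRIB1 to 1.33-fold for VIM.

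Many transcripts lowered in DU145 behaved otherwise in PC3, whose libraries did not enter the choice of these genes other than through the shared estimate of spread. TRIB1 itself started higher in PC3, at 45.1 and 50.8 TPM with empty virus, and was at 241 and 245 TPM with the TRIB1 virus. The 2 lines thus cover different ranges of TRIB1, and the part of this in the differences below was not tested. Of the 154 protein-coding genes called lower in DU145, 39 (25.3%) rose in PC3, 29 (18.8%) fell and 86 did not pass. Over all genes tested, which include noncoding ones, 7.67% rose in PC3 and 9.33% fell. Of the 209 genes of any type called lower, 45 (21.5%) rose in PC3 and 34 (16.3%) fell. Of the 42 protein-coding genes called higher, 11 rose in PC3 and 2 fell. Genes called in DU145 tend to have a small shared spread, which makes passing in PC3 likelier in either direction. These shares are therefore a description. The difference between the lines was lower for 114 of the 154 (74.0%, against 5.36% of all genes tested) and higher for 27 of the 42 (64.3%, against 4.01%). The DU145 values enter both the choice and that difference, so the last 2 shares are a description too. LCN2 rose in PC3 from 698 and 665 TPM to 2099 and 2043 TPM, opposite to its fall in DU145. IL6 rose there from 62.4 and 73.8 TPM to 419 and 403 TPM (difference of log2 changes -4.75, SE 0.16, adjusted p = 0.000931). CCL20, CXCL1, CXCL2, SLPI and TNFAIP3 had opposite directions in the lines as well. By list, 7 of the 12 chemokines rose in PC3 and 1 fell, 6 of the 20 antimicrobial genes rose and 3 fell, and 8 of the 20 NF-kB feedback genes rose and 2 fell.

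Other lowered genes went down in both lines or in DU145 alone. IFI6 fell in PC3 by 1.63, and the difference of 0.10 did not pass (adjusted p = 0.709). S100A8 fell by 1.67 in PC3 and ICAM1 by 0.77, and CSF1 by 0.82. Of 43 interferon-stimulated effectors 3 rose in PC3 and 9 fell, and for 20 the change was lower in DU145. NPNT and BMP4 rose in both lines, by 2.03 and 1.30 in PC3, with differences of -0.33 and 0.05 that did not pass (adjusted p = 0.273 and 0.881). PTGES, the prostaglandin E synthase, went from 103 and 97.2 TPM to 24.7 and 23.6 TPM in DU145 (log2 change -2.01, SE 0.06, adjusted p = 0.000763) and was at 43.3 and 41.4 TPM and then 39.8 and 40.5 TPM in PC3. C15orf48, which encodes a mitochondrial protein induced in inflammation, fell in DU145 from 381 and 351 TPM to 184 and 169 TPM and rose in PC3 by 1.69.

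**Figure D5:**
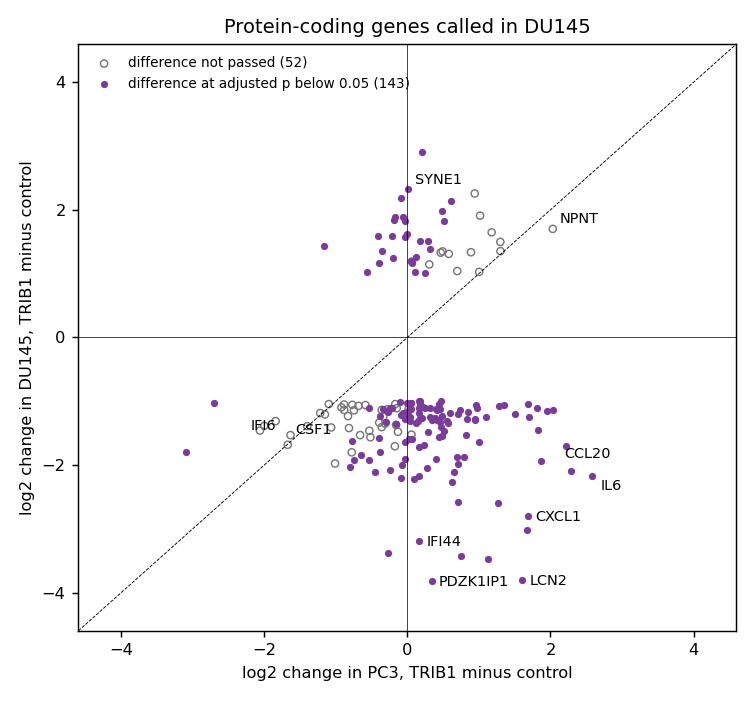
Log2 change with TRIB1 in DU145 (vertical) against PC3 (horizontal) for the 195 protein-coding genes called in DU145 other than TRIB1; filled points are the 143 whose difference has an adjusted p below 0.05, open points the other 52, and the dashed line marks equal changes. LCN2, CXCL1, IL6 and CCL20 lie at the lower right, lowered in DU145 and raised in PC3.

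Calls outside protein-coding genes numbered 94, 39 higher and 55 lower. Of these 47 belonged to short RNA classes (19 miRNA, 10 snoRNA, 8 miscellaneous RNA, 8 snRNA and 2 rRNA pseudogenes), which stood at a higher share of TRIB1 library 2 as given above. The part of that library in these calls was not tested, and a fit without it rests on 1 TRIB1 library. Of the 290 genes 121 were called without each of the 8 libraries in turn, 34 higher and 87 lower, and 79 of the 121 are protein-coding (17 higher and 62 lower). They include LCN2, PDZK1IP1, SLPI, CXCL1, CXCL2, IL6, IFI44, GBP1, OAS1, IFIH1, SYNE1, FOLR1 and TNNC1. With the 4 DU145 libraries fitted alone, 41 of the 290 were called, LCN2, CXCL2, SLPI and SYNE1 each at an adjusted p of 0.047.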

How the data were processed

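Total RNA of DU145 and PC3 cells was sequenced in 8 libraries. The deposited table holds TPM values per gene that sum to 1000000 in each library. Per the submitters' processing notes the tools were edgeR, DESeq, HTSeq and TopHat2 2.0.14, and the build hg38; which step gave the TPM is not given in the sources used here. Depth is unknown, so no counting interval was computed. Coordinates of the table are not printed, because they are not those of hg38. Gene types were taken by identifier from GENCODE 29 for 52338 of the 57905 genes and otherwise from the submitters. Symbols were taken by identifier from a separate list of gene names for 51996 genes and otherwise kept.

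log2(TPM + 1) values were fitted with limma 3.58.1 in R 4.3.3, letting the variance follow the mean, over the 25982 genes that averaged 1 TPM or more in 1 of the groups, all 8 libraries and 4 group means (4 residual and 1.89 prior degrees of freedom). P-values were adjusted by Benjamini-Hochberg over all genes tested. In simulated data the call rate was 76% for changes of 1.5 in log2 and 89% for changes of 3, and 23 of 25782 unchanged genes were called. For changes of 3 the direction was not checked. The changed genes were over 5 TPM in the DU145 controls, and the noise was normal and independent between libraries. No simulated library stood apart as TRIB1 library 2 did, so these rates do not carry over to it or to lower genes. Replicate numbers did not pair the samples (correlation of replicate differences -0.0415 in DU145).

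Members and the 42 gene lists were chosen with earlier results of these data known. Named genes were TRIB1, the 12 largest called protein-coding changes per direction with at least 5 TPM in a group and no overlap, the 4 smallest p of each list with at least 2 members passed, a set of C/EBP, NF-kB, interferon and acute phase genes, and the 8 called differences from PC3 with the smallest p. Some others are marked as chosen after their values were seen. Further list members, such as CYLD, C2, CD46 and SPRY4, fall outside these rules and carry no mark. A total of 22 alternatives was run. Some results are not reported here.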

Additional observations from a re-analysis of the deposited data

Results flagged for a closer look

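The change with TRIB1 in DU145 differed from that in PC3 for 1330 genes (limma, adjusted p below 0.05 and a difference of log2 changes over 1). Among protein-coding genes called in DU145, the 8 with the smallest p were all lower in DU145. The difference of log2 changes (DU145 minus PC3) was -5.4 for LCN2, with a change of -3.80 in DU145 and 1.6 in PC3 (adjusted p of the difference 0.000211). It was -4.75 for IL6 (-2.17 and 2.58), -4.70 for SLPI (-3.02 and 1.67), -4.48 for CXCL1 (-2.79 and 1.69) and -3.87 for CXCL2 (-2.60 and 1.27). C15orf48 followed at -2.73 (-1.04 and 1.69) and BIRC3 at -1.87 (-1.14 and 0.73). These 7 genes fell in DU145 and rose in PC3. PTGES, at -1.93, fell in DU145 alone (-2.01 against -0.07).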

How the results depend on the processing

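With 1 library of a group left out, the remaining one is assumed to vary like the other groups. Counts of called genes then ran from 195 to 584 (60 to 405 higher, 135 to 442 lower), and those of differences between the lines from 1006 to 1650. In place of 290, 81 and 209 (all, higher, lower) there were 46, 9 and 37 with the 4 DU145 libraries alone, 120, 37 and 83 at a pseudocount of 5, 11, 3 and 8 with treat, and 11, 1 and 10 with the replicate number as a block; the cause was not tested. The 1330 differences became 690, 54 and 74 under the last 3. In the replicate block the libraries share only a number. Rescaled by median-of-ratios or by upper quartile, the median of all genes was 0.0 in place of -0.04, with 247 and 235 calls. MUC20, at -0.03, reversed to 0.0478 and 0.0322 under these scalings, to 0.00748 with protein-coding genes alone, to 0.00403 with short RNAs removed, and to 0.117 and 0.148 without TRIB1 library 1 or control library 2, and ranged from -0.2 to 0.148 with single libraries left out; it passed in none of these. Of 162 genes looked at singly 128 passed, and 19 kept their side of the threshold in all 22 alternatives; 120 lost it with treat, 117 with the replicate block, 101 with 4 libraries alone and 65 without control library 1, the most for any single library. Depth limits low genes by an unknown amount, since TPM keeps no totals.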

Other observations

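Class II MHC genes, which were not on a list, are transcribed in DU145 at low to middle levels, and their values were looked at after the lists. CD74, the invariant chain that escorts class II molecules, went from 56.0 and 55.3 TPM to 18.6 and 15.95 TPM (limma log2 change -1.64, adjusted p = 0.0175). HLA-DPA1 went from 24.7 and 22.8 TPM to 7.89 and 10.4 TPM (-1.30, adjusted p = 0.0207). These 2 fell but lost their adjusted p without any 1 of 6 and 4 libraries (up to 0.0991 and 0.106), and the rest did not pass. HLA-DRA was at 4.6 and 3.98 TPM and then at 1.55 and 1.02 TPM. HLA-DQB1 (22.2 and 20.8 TPM, then 15.6 and 14.4 TPM), HLA-DMA (54.0 and 45.7 TPM, then 38.8 and 33.9 TPM) and HLA-DMB (21.3 and 20.96 TPM, then 16.5 and 17.0 TPM) had smaller gaps. HLA-DPB1 was at 4.15 and 3.4 TPM and then at 2.74 and 1.58 TPM. In all 7 genes the TRIB1 libraries lay below both controls. These 7 were picked after their values were seen. The TRIB1 libraries lay on 1 side of both controls in 47.3% of all genes tested.

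Genes called lower often stood next to each other in the genome. Among the tested protein-coding genes in the table's order, 22 of the 154 called lower (14.3%) had a direct neighbour that was also called lower, against 2.05% of all 14779. Of the 42 called higher 2 had a called neighbour (4.76%, against 0.568%), and these were ALPP and ALPG. The neighbours called lower included GBP1, GBP2 and GBP3 on chromosome 1, CXCL2 and CXCL3 on chromosome 4, SAA1 and SAA2 on chromosome 11, C1R with C1S and OAS1 with OAS3 on chromosome 12, and PI3 with SLPI and WFDC3 with WFDC10B on chromosome 20. Several of these are near copies that may share reads. The whey acidic protein genes of chromosome 20 inhibit proteases, and WFDC2 lies there as well. WFDC2, WFDC3, WFDC10B and PI3 were chosen after their values were seen. WFDC2 went from 24.9 and 23.3 TPM to 4.64 and 5.21 TPM (-2.08, adjusted p = 0.0104). WFDC3 was at 34.6 and 33.6 TPM and then at 9.86 and 9.82 TPM, PI3 at 6.69 and 4.4 TPM and then at 1.94 and 1.49 TPM. WFDC10B was at 3.08 and 3.06 TPM and then at 0.553 TPM and listed at 0. WFDC2 and WFDC3 lost their adjusted p without control library 1 (0.0534 and 0.0515), and PI3 and WFDC10B without any 1 of 7 libraries (up to 0.113 and 0.166). No test of the clustering was made.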
